A study of Mus musculus with 52 samples.

Results

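The histone genes of this data set comprise 89 gene symbols among the 49466 genes of the 2 deposited count tables. They were chosen by the form of their symbols, with earlier results of these data known: 68 belong to the replication-dependent genes that lie in clusters (symbols beginning Hist1h to Hist4h) and 21 to the variant genes (H1f, H2af and H3f3 symbols). Single cells of the mouse were sequenced. The founders were burst-forming unit-erythroid (BFU-E) cells, early progenitors of the red cell lineage, from C57/Bl6J fetal liver at embryonic day 14.5, which gave 1 pair of daughters each within 16 hours of culture. Per the labels' protocols, the fetal liver cells had first been depleted of cells with lineage markers (among them Ly-6G and CD11b), Sca-1, CD41 or CD16/32, and BFU-E cells were then sorted with antibodies that include CD117, CD71 and CD24. In 13 pairs the medium had no dexamethasone, and in the other 13 it held 100 nM of this synthetic glucocorticoid. Each of the 52 daughters gave 1 library of polyadenylated RNA.

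In 3 untreated pairs at least 1 daughter held under 100000 counts, and these pairs entered only an alternative fit, which left 10 untreated and 13 dexamethasone pairs (46 libraries). Their totals ran from 210380 to 5606500 counts with a median of 2773000, and no library repeated another. The founder is the replicate, and its daughters are not independent. The labels do not say which embryo a founder came from. Well positions in the labels placed both daughters of a pair in the same plate column. Untreated and dexamethasone pairs shared only column 6, so treatment and plate column are largely confounded. All 11 genes of an erythroid progenitor list reached 10 CPM (counts scaled to a library total of 1000000) in at least 1 library of each treatment. At least 3 of 15 granulocyte and monocyte markers reached that level in 6 of 20 untreated and 9 of 26 dexamethasone libraries. In 5 pairs (untreated pairs 9 and 10, dexamethasone pairs 6, 7 and 10) both daughters held more summed CPM of Mpo, Prtn3, Elane, Ctsg and Ms4a3 than of 7 erythroid genes, and they are called the granulocyte-marker pairs here.

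Histones are the proteins around which DNA is wrapped: H2A, H2B, H3 and H4 form the nucleosome core, and H1 binds the linker between nucleosomes. Replication-dependent genes supply new histone while DNA is copied in S phase. Their messengers usually end without a poly(A) tail, just after a hairpin that is bound by the stem-loop binding protein Slbp. Variant genes such as H3f3a and H3f3b (H3.3) or H2afz (H2A.Z) are expressed outside S phase too and carry a poly(A) tail. A library of polyadenylated RNA therefore samples the 2 classes differently.

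The hairpin was read from the GENCODE M21 annotation of GRCm38 for each coding gene. The letters searched were GG, any 3 bases, TTT, any 2 bases, A, any 3 bases and CC, on the sense strand after the stop codon, with a paired stem. The search covered the whole annotated 3′ untranslated region in the 89 genes and its first 150 bases in other genes. In the sequences shown, which are the 4 hairpins of frequently detected clustered genes, 1 of a gene never frequent, and that of the variant gene H2afx, the capitals mark the hairpin and the lower case its flanks.
Hist1h4i: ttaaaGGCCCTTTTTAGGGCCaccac
Hist1h4d: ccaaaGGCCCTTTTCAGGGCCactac
Hist1h2ae: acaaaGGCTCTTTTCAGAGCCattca
Hist1h1c: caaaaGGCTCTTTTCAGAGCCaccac
Hist1h2ag: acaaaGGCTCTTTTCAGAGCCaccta
H2afx: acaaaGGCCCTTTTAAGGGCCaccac
The hairpin was found in 42 of the 65 coding clustered genes, with its first base 22 to 59 bases past the stop codon (median 32.5). Of the 65, 50 had an annotated 3′ untranslated region of at least 16 bases. Of 21056 other coding genes with one of at least 16 bases, 6 held the hairpin, which is 0.028%. Among these 6 are the histone genes Hist1h2bh, Hist1h2bm and H2bfm, whose symbols are not among the 89, beside Cyp17a1, Ppm1b and Ttc14. The form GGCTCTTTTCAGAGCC was shared by 24 genes of the H1, H2A, H2B and H3 families. The 11 H4 genes with a hairpin all carried another stem, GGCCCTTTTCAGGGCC in 7 of them. H2afx, whose protein is phosphorylated around DNA breaks, was a variant gene with a hairpin, followed by 822 annotated bases and a poly(A) signal.

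Few clustered genes were seen often. Of the 68, 6 reached 10 CPM in at least 5 of the 46 libraries (8.82%), 26 did so in 1 to 4 libraries and 36 in none. Of the 21 variant genes 8 did so (38.1%), beside 17.4% of all genes in the tables. The order of clustered genes and all genes depended on the level asked for: with at least 1 count in 5 libraries the shares were 47.1% of clustered, 57.1% of variant and 25.6% of all genes. The 6 were Hist1h4i and Hist1h4d (core histone H4), Hist1h2ae (H2A), Hist1h2bc (H2B), and Hist1h1b and Hist1h1c (linker histone H1). No gene of the H3 family, with 12 clustered members, was among them.

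The annotated 3′ end differed among these genes. In 15 coding clustered genes a poly(A) signal (AATAAA or ATTAAA) lay past the hairpin, and 4 of them were among the 6: Hist1h4i, Hist1h4d, Hist1h2ae and Hist1h1c, with 151 to 840 annotated bases past the hairpin. In 27 genes the hairpin had no such signal past it, and 0 of them were among the 6. Hist1h2ag, with 23 bases past its hairpin, is an example at 10 CPM in 2 libraries. The remaining 23 genes had no hairpin in the annotation, often because no untranslated region was annotated, and held Hist1h2bc and Hist1h1b. The genes of the 3 groups are close in sequence to one another to different degrees: the median share of 50-base stretches found in no other annotated transcript was 83.7% in the first group, 39.6% in the second and 17.2% in the third. Reads of near-identical genes may be split or dropped by the counting, so levels of single clustered genes are uncertain, and the part of this in the difference was not tested.

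**Figure D1:**
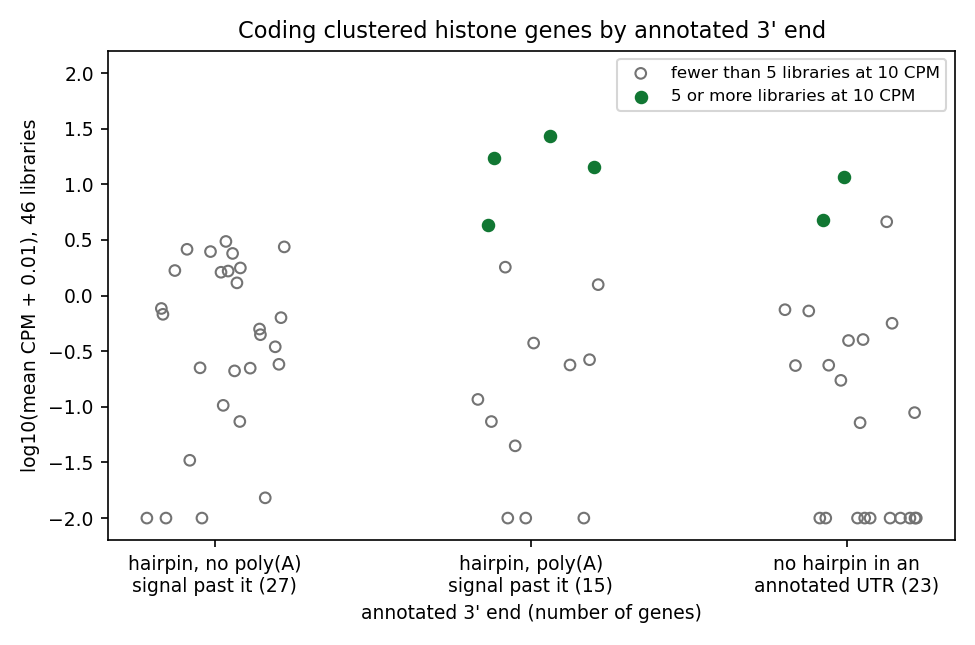
Mean level of each of the 65 coding clustered histone genes over 46 libraries (log10 of mean CPM + 0.01, vertical axis) by its annotated 3′ end (horizontal axis). Filled points are the 6 genes at 10 CPM or more in at least 5 libraries: 4 lie among the 15 genes with a poly(A) signal past the hairpin and 0 among the 27 without one.

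Where clustered genes were seen, they were seen in some cells and at 0 in others. Hist1h4i (ENSMUSG00000060639, chromosome 13, 22040636 to 22041362, minus strand) ran from 0 to 234 CPM over the 46 libraries with a median of 8.82, and reached 10 CPM in 23. Hist1h4d (ENSMUSG00000061482, chromosome 13, 23581598 to 23582735, plus strand) ran from 0 to 82.6 CPM with a median of 10.1, also with 23 libraries at 10 CPM. Hist1h2ae reached 85.5 CPM and passed 10 CPM in 19 libraries, and Hist1h2bc reached 86.0 CPM and did so in 16. Each of these genes thus had libraries without a count beside libraries with a clear level. Hist1h1b passed 10 CPM in 9 libraries and Hist1h1c in 6. Among the other highest clustered genes, Hist2h2be had a maximum of 114 CPM but a count in 6 libraries only, Hist2h2ac a maximum of 92.4 CPM with a count in 9, Hist1h2ab a maximum of 44.7 CPM, and Hist1h2ag one of 27.5 CPM. A library held a count for a median of 9.5 clustered genes (2 to 19) and 10 CPM for a median of 3 (0 to 7).

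**Figure D2:**
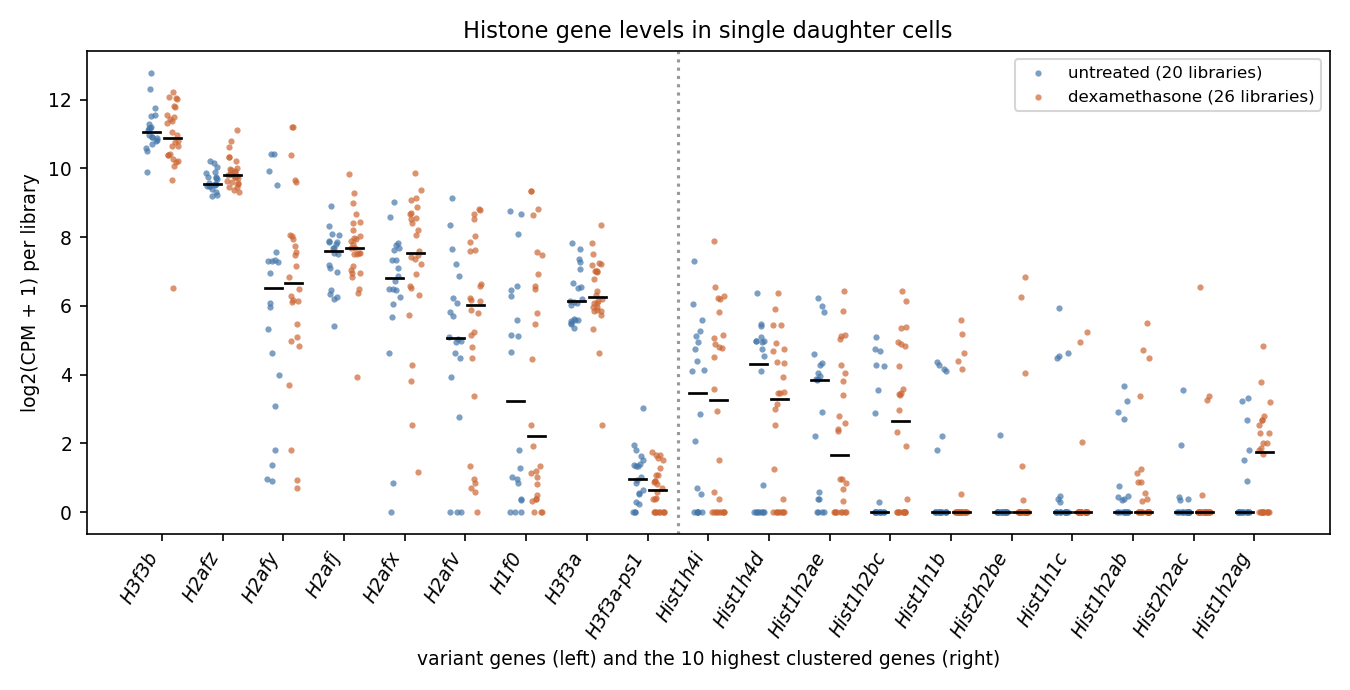
Level of each named histone gene in each library, as log2(CPM + 1), for variant genes (left of the dotted line) and the 10 clustered genes with the highest mean CPM (right). Blue points are 20 untreated and orange points 26 dexamethasone libraries, and black bars are medians. H3f3b and H2afz have counts in all 46 libraries, whereas most clustered genes have a median of 0.

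Variant genes made up nearly all histone counts. Their sum had a median of 3683 CPM (1925 to 10382), against 104.5 CPM (2.45 to 418) for the clustered sum, which was 2.41% of the histone counts in the median library. H3f3b, which encodes H3.3, ran from 90.3 to 7058 CPM with a median of 2011. H2afz, which encodes H2A.Z, ran from 591 to 2239 CPM with a median of 855. H2afz was the narrower of these. H2afj was counted in all 46 libraries (14.3 to 911 CPM). H2afx, H2afv (the second H2A.Z gene) and H2afy (macroH2A1, a large H2A variant) reached 10 CPM in 42, 35 and 38 libraries. H1f0, the linker histone H1.0, was at 10 CPM in 22 libraries, with a median of 3.79 and a maximum of 655 CPM. Per kilobase of exon, the order of mean levels was H3f3b (799 CPM), H2afz (520), H2afx (155), H2afj (124), H2afv (66.6), H2afy (49.1), H1f0 (47.4), Hist1h4i (37.6) and H3f3a (27.7), where H3f3a is the second H3.3 gene.

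The first comparison asked whether dexamethasone changed histone genes over pairs. No histone gene passed the test. H2afx had the smallest p: it ran from 33.3 to 294 CPM in untreated pairs (median 142) and from 53.0 to 531 CPM in dexamethasone pairs (median 233), and the groups overlapped. Its log2 difference was 0.84 ± 0.42 (standard error), with an unadjusted p of 0.056 and an adjusted p of 1.00 by the quasi-likelihood test of edgeR. H2afz ran from 681 to 1032 CPM untreated and from 666 to 1527 CPM with dexamethasone, a log2 difference of 0.32 ± 0.20 (adjusted p = 1.00). For H3f3b the difference was -0.13 ± 0.30, for H1f0 0.48 ± 1.13, for H2afy 0.27 ± 0.93 and for H2afv 0.39 ± 0.81. Among clustered genes, Hist1h2ag had 1.55 ± 1.01 (unadjusted p = 0.137), Hist1h2bc 1.5 ± 1.2, Hist1h4i 0.63 ± 0.95, Hist1h4d -0.23 ± 1.22 and Hist1h2ae -0.70 ± 0.89. Of the 14 histone genes that entered this fit, 0 were called, beside 0 of 7190 genes (0.0%), and 71 genes (0.987%) had an unadjusted p under 0.05, 0 of them a histone gene. DESeq2 called 0 genes too, with 173 at an unadjusted p under 0.05, 2 of them variant histone genes. By limma 0 were called, with 304 such genes and 0 of them a histone gene. By edgeR, 1 histone gene had such a p with RLE scaling, and 1 with the pairs under 100000 counts included. That count was 1 without the granulocyte-marker pairs and with a term for the later plate columns. It was 0 with the number of genes detected as a term or pair numbers as blocks. Without a filter on low counts it was 18 of 65, beside 3331 of 18628 genes. In the fit reported first, the median log2 difference was 0.35 over the 8 variant and 0.41 over the 6 clustered genes, beside 0.02 over all genes.

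The second comparison set histone genes against the cell cycle. A pair's S score is the mean log2(CPM + 1) of 51 S-phase genes, and its G2/M score that of 48 genes of G2 and mitosis, and neither list holds a histone gene. In 1 fit with both scores and the treatment, all 8 variant genes had a negative S-score coefficient and 4 of 6 clustered genes a positive one, and no histone gene passed the test. For H3f3b the coefficient, in log2 units per SD of the score, was -0.54 ± 0.14 (unadjusted p = 0.00074, adjusted p = 0.110 by edgeR). H2afz had -0.30 ± 0.10 (adjusted p = 0.234), H2afy -1.25 ± 0.49, H2afv -1.02 ± 0.42, H2afx -0.58 ± 0.23 and H1f0 -1.98 ± 0.82. The smaller values of H3f3a (-0.27 ± 0.30) and H2afj (-0.25 ± 0.23) lay within about 1 standard error of 0. On the clustered side, Hist1h2bc had 1.51 ± 0.70, Hist1h4i 1.32 ± 0.69 and Hist1h4d 1.04 ± 1.25, while Hist1h2ae had -0.33 ± 0.60.

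Of the 14 histone genes 0 were called, beside 11 of the 7091 genes tested outside the score lists (0.155%). At an unadjusted p under 0.05 there were 7 of 14, beside 11% of those genes. Of these 7, H3f3b, H2afz, H2afx, H2afy, H1f0 and H2afv were lower with a higher score, beside 5.99% of genes, and Hist1h2bc was higher, beside 5.01%. Leaving out 1 pair at a time gave 4 to 8 such genes, with the 4 seen without untreated pair 9, a granulocyte-marker pair. The 8 variant coefficients had a median of -0.56, beside 0.04 over all genes. With the S score as the only score, H3f3b (-0.58, adjusted p = 0.00352) and H2afz (-0.33, adjusted p = 0.0437) fell past the threshold by edgeR. That fit called 100 of 7190 genes, and 0 of the 6 clustered genes had an unadjusted p under 0.05. With limma on log2(CPM + 1), Hist1h2bc was called higher (1.43, adjusted p = 0.0303), beside 199 of 7190 genes called. In that fit 5 of 8 variant coefficients were negative, and that of H2afx was 0.39. Coefficients of the limma fit lay above 0 in general, with a median of 0.42 over all genes. The median was -0.19 over the 8 variant genes and 0.33 over the 6 clustered genes. Without the granulocyte-marker pairs, whose S scores ran from 4.41 to 5.92 beside 3.42 to 7.30 in the other 18 pairs, 6 of the 8 variant coefficients were negative and 0 had an unadjusted p under 0.05, with H3f3b at -0.17 ± 0.13. The S score also moved with the number of genes detected (Pearson r = 0.75 over 46 libraries, a description). With that number in the fit, H3f3b had -0.42 ± 0.17 and H2afy -2.11 ± 0.51. Of the 6 clustered coefficients 3 were then negative, and 0 had an unadjusted p under 0.05 by edgeR. With a term for the later plate columns instead, 6 of the 8 variant coefficients were negative. Only 2 of the 14 histone genes, 1 of them a variant gene, then had an unadjusted p under 0.05 by edgeR, beside 477 of 7190 genes.

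**Figure D3:**
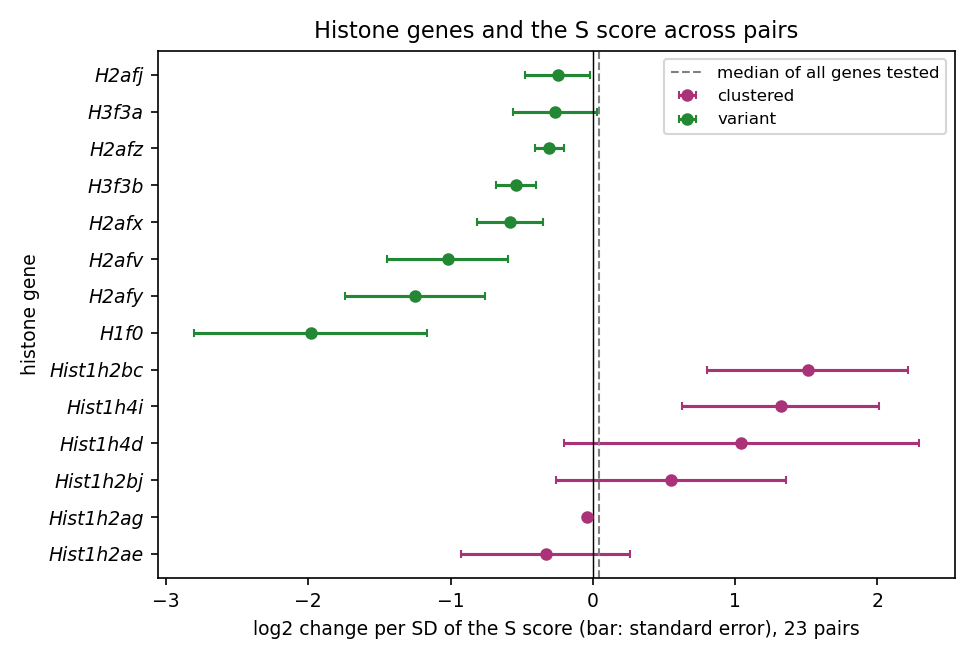
Coefficient of the S score for each of the 14 histone genes in the fit over 23 pairs, in log2 units per SD of the score, with standard errors as bars (none for Hist1h2ag, whose test statistic is near 0). The 8 variant genes (green) lie below 0 and 4 of the 6 clustered genes (purple) above it, and the dashed line is the median of all genes tested.

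For the G2/M score 0 of 14 histone genes were called, beside 0.0% of the same 7091 genes. An unadjusted p under 0.05 was seen for 4 of them, beside 6.53% of genes: Hist1h2bj was higher at 2.26 ± 0.79 (adjusted p = 0.397), beside 4.75% of genes, and Hist1h2bc (-1.60 ± 0.61), H2afy (-0.78 ± 0.35) and H2afv (-0.74 ± 0.32) were lower, beside 1.78%. Leaving out 1 pair at a time gave 2 to 5 such genes, with 2 seen without untreated pair 10 and without dexamethasone pair 7, both granulocyte-marker pairs. Without all granulocyte-marker pairs 1 of 15 histone genes, a variant gene, had such a p by edgeR, beside 485 of 7398 genes. Hist1h2bj was at or under 9.53 CPM in every pair.

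Daughters of 1 founder can differ in S score, which allows a comparison free of founder. Between daughters, 0 of 17 histone genes were called by edgeR, beside 0 of the 7916 genes tested outside the score lists (0.0%). H2afz had -0.47 ± 0.22 (unadjusted p = 0.043, adjusted p = 0.700) and the pseudogene H3f3a-ps1 -1.5 ± 0.70 (adjusted p = 0.700), the 2 members with an unadjusted p under 0.05, beside 7.04% of genes (2.67% lower and 4.37% higher). H3f3a-ps1 is a processed copy of H3f3a, so its reads cannot be told from those of H3f3a with certainty. The clustered sum was higher in the daughter with the higher S score in 8 of 23 pairs, and the variant sum in 10 of 23.

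Genes that process histone messengers or carry new histones were followed as a list of 45, of which 43 entered the fits over pairs. For treatment 0 were called and 1 had an unadjusted p under 0.05, beside 0.987% of all genes: Hat1, which acetylates new H4 (-0.77 ± 0.33, adjusted p = 1.00). The next smallest p values were those of Lsm11 (-2.87 ± 1.60), of the particle that cuts histone messengers, and Atrx (1.49 ± 0.85), a chaperone partner for H3.3. Slbp had -0.17 ± 0.28 and Npat, an activator of clustered histone genes, -0.43 ± 1.05. For the S score 0 were called and 7 had an unadjusted p under 0.05, beside 11% of genes, 4 of them higher (beside 5.01%) and 3 lower (beside 5.99%). The smallest were those of Hjurp, the chaperone of the centromeric H3 (1.62 ± 0.56, adjusted p = 0.259), Znhit1, of a complex that inserts H2A.Z (-0.87 ± 0.32, adjusted p = 0.307), and Asf1a, an H3-H4 chaperone (-0.53 ± 0.20, adjusted p = 0.311). Slbp had 0.20 ± 0.17 by edgeR, and Npat had 1.31 ± 0.91. With limma Slbp was called higher (1.02, adjusted p = 0.010), 1 of 3 called genes of the list, beside 199 of all 7190 genes. The median limma coefficient was 0.57 over the list and 0.42 over all genes. By edgeR without the granulocyte-marker pairs, 0 of 43 list genes had an unadjusted p under 0.05, beside 400 of 7398 genes. With a term for the later plate columns 2 of 43 did, beside 477 of 7190. For the G2/M score 0 were called and 5 had such a p, beside 6.53% of genes, led by Cdk2 (-0.67 ± 0.16, adjusted p = 0.107), Cenpa, the centromeric H3 (0.85 ± 0.21, adjusted p = 0.123), and Rbbp7 (-0.47 ± 0.14, adjusted p = 0.223). Within pairs 0 of 44 were called, and the smallest p values were those of Eri1, an exonuclease acting on the histone hairpin (4.43 ± 1.5, adjusted p = 0.552), Ipo4, an importer of H3-H4 (4.05 ± 1.42, adjusted p = 0.571), and Hjurp (2.13 ± 0.90, adjusted p = 0.685). In that fit 5 of the 44 had an unadjusted p under 0.05 by edgeR, 4 higher and 1 lower, beside 7.04% of genes. Without the granulocyte-marker pairs 4 of 43 did, 0 higher and 4 lower, beside 517 of 7466 genes.

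The last comparison asked whether daughters of 1 founder resembled each other more than cells of different founders. For 2 histone genes, H2afy and H2afz, founders differed beyond the spread between daughters. Daughters also shared a plate column, so a difference between columns would count here as one between founders. For H2afy the mean absolute log2 difference was 1.99 between daughters and 3.37 between cells of different founders with the same treatment (adjusted p = 0.0205 by edgeR). For H2afz these were 0.31 and 0.43 (adjusted p = 0.0266). Most genes had the smaller value between daughters: it was the smaller in 79.0% of the 8015 genes tested, with a median gap of -0.29, beside -1.37 for H2afy and -0.12 for H2afz. These were 2 of 17 histone genes tested, beside 271 of 8015 genes (3.38%). At an unadjusted p under 0.05 there were 5 of 17, which adds H3f3b, H1f0 and Hist1h4d, beside 19.6% of genes. Hist1h4d had 1.16 between daughters and 2.73 between founders (adjusted p = 0.204 by edgeR). It was called by limma (adjusted p = 0.00827), which called 651 of the 8015 genes, 2 of them histone genes. Hist1h4i had 3.42 and 3.03 (adjusted p = 1.00): in 13 of 23 pairs 1 daughter reached 10 CPM and the other did not. H2afx had 2.36 and 2.26, and H1f0 3.01 and 3.88 (adjusted p = 0.201). From the list of 45, Npm1 (adjusted p = 0.0188), an abundant nucleolar histone chaperone, and Znhit1 (adjusted p = 0.0101) were called. The calls rested on the setting. H2afy had an adjusted p of 0.892 without the granulocyte-marker pairs, 0.0939 with the number of genes detected as a term, and 0.317 within plate columns. H2afz had 0.0360, 0.851 and 0.364 in these fits, and 0.583 with limma.

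**Figure D4:**
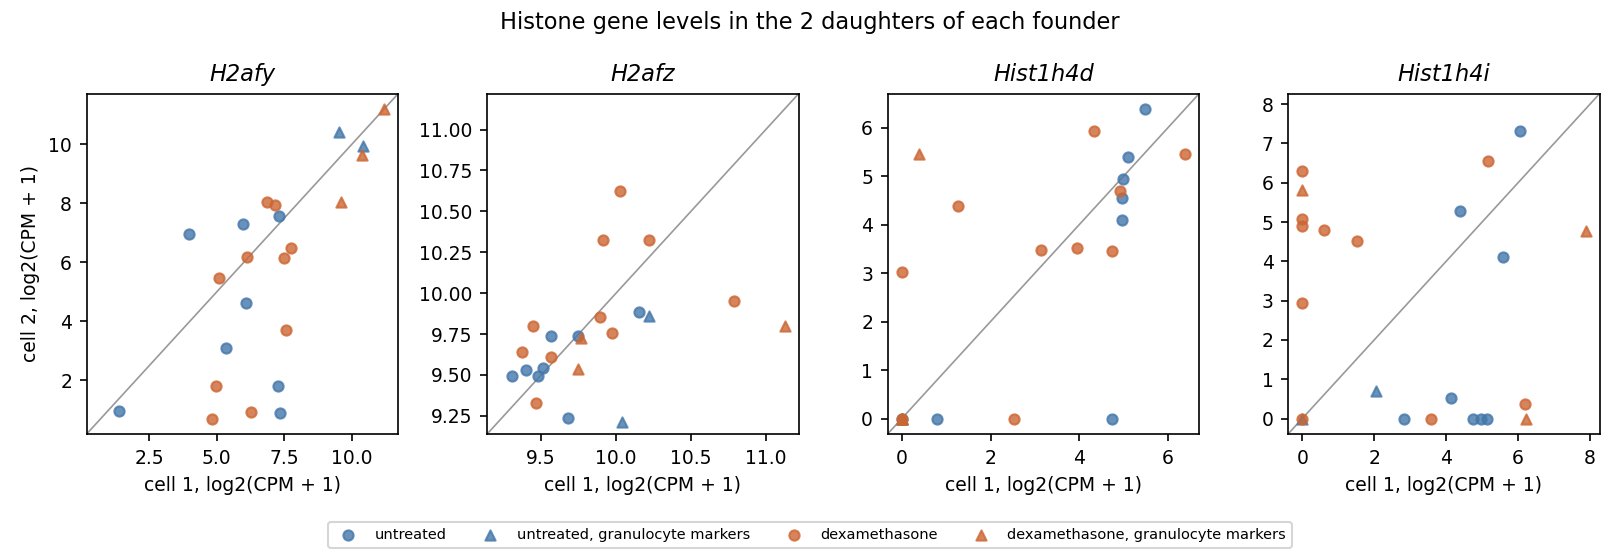
Level of 4 histone genes in cell 1 (horizontal) and cell 2 (vertical) of each of 23 pairs, as log2(CPM + 1), with the line of equality. Triangles are the 5 granulocyte-marker pairs, blue is untreated and orange dexamethasone. H2afy is at 731 to 2358 CPM in both daughters of 4 of the 5 triangles, and Hist1h4i is often near 0 in 1 daughter alone.

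H2afy and H2afv stood apart in the granulocyte-marker pairs. H2afy was at 1087 and 1127 CPM in untreated pairs 9 and 10, and at 443, 2349 and 1060 CPM in dexamethasone pairs 6, 7 and 10, against 1.35 to 190 CPM (median 72.1) in the other 18 pairs. H2afv was at 227, 427, 378, 333 and 426 CPM in the same order, against 0.772 to 143 CPM (median 32.1). The groups of pairs did not overlap for either gene. Single daughters did for H2afy: cell 2 of dexamethasone pair 6 was at 261 CPM and cell 2 of dexamethasone pair 8, outside the 5, at 264 CPM. Of 22 histone genes with 10 counts in at least 5 pairs, these 2 were higher without overlap, beside 0.7% of 9144 genes, and 0 were lower, beside 0.175%. The pairs were grouped by marker genes and not by the study, so no test was made, and the comparison was added after the values had been seen. H3f3a overlapped, at 107 to 272 CPM against 20.9 to 143 CPM. Hist1h4d was at 0 in 4 of the 5 pairs and at 0 in 2 of the other 18. Hist1h2bc went the other way, at 3.63 to 74.2 CPM in the 5 pairs and 0 to 20.4 CPM in the others. The clustered sum overlapped, at 48.2 to 311 CPM against 3.49 to 238 CPM. The granulocyte marker sum ran from 6660 to 26148 CPM in the 5 pairs and from 0.616 to 2842 CPM in the others, and the part of this programme in the levels was not tested.

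**Figure D5:**
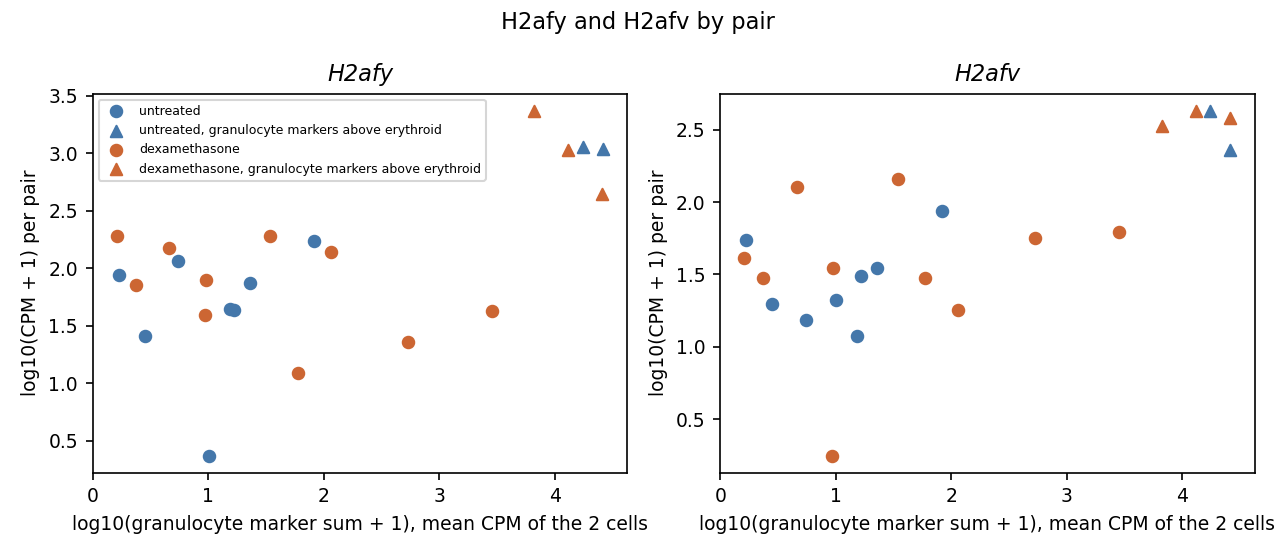
Level of H2afy (left) and H2afv (right) per pair, as log10(CPM + 1), against the summed level of 5 granulocyte markers (log10 of the mean CPM of both cells + 1). The 5 granulocyte-marker pairs (triangles) lie above the other 18 (circles) for both genes, in both treatments.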

How the data were processed

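Per the submitters' processing notes, reads were processed with STAR 2.4 and featureCounts on GRCm38. The authors deposited raw counts per gene, 1 table per treatment, and 0 columns were without a sample. Strand and multi-mapping settings were not given in the sources used here.

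Counts of the daughters were summed per pair and tested with edgeR 4.0.16 (TMM scaling, quasi-likelihood test, filterByExpr at its minimum count of 10) in R 4.3.3. Comparisons within pairs and of daughters used single libraries and genes with at least 5 counts in 10 libraries. Benjamini-Hochberg adjustment ran over all genes tested, with a threshold of 0.05. Standard errors came from the test statistic. Alternatives used limma 3.58.1 on log2(CPM + 1), DESeq2 1.42.0 and other filters, scalings and covariates. The fits were tested on simulated counts in which all changed genes lay above the median level. That does not show how they perform for genes of low level. Named genes were every variant entering a fit, the 10 clustered genes with the highest mean CPM, every gene called, and for the supply list the called genes or the 3 smallest p. Members and lists were chosen with earlier results of these data known.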

Additional observations from a re-analysis of the deposited data

Results flagged for a closer look

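In the 10 untreated pairs, 5 of 21 series of pair levels held 1 pair far from the rest by Dixon's ratio. Chance meets this rule in about 1 of 20 groups of normally distributed values. The pair levels are skewed and hold zeros, so that rate does not apply to them, and whether 5 is an excess cannot be told. Pair 1 was the highest for Hist1h4i at 99.2 CPM, with the next pair at 33.1 CPM, and for Hist1h1c at 38.5 CPM, with the next at 13.2 CPM. For Hist2h2be it was the only pair with a count, at 1.35 CPM, which fixes the ratio at 1 whatever the count. Pair 10, 1 of the granulocyte-marker pairs, was the highest for H2afv at 427 CPM, with the next, pair 9, at 227 CPM. It was also the highest for the pseudogene H3f3a-ps1, at 4.86 CPM, with the next at 1.90 CPM.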

How the results depend on the processing

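The number of histone genes called for treatment was 0 under each alternative run. For the S score across pairs it was 0 except 1 with limma (199 genes called in all) and 2 with the S score alone (100 genes, beside 12 in the fit reported). For the G2/M score it was 0 except 1 of 65 without a filter on low counts (667 of 18628 genes, beside 2 of 7190). Within pairs it was 0 throughout. For genes shared by daughters it was 2 of 17 (271 of 8015 genes), and 1 with the shallow pairs included (276 of 8078 genes). With limma it was 2 of 17, 1 clustered and 1 variant (651 of 8015 genes). Without a filter it was 6 of 65 (3313 of 18628 genes). It was 1 without the granulocyte-marker pairs (158 genes), 0 with the number of genes detected as a term (63 genes) and 0 within plate columns (93 genes). Leaving out each pair in turn gave 0 to 0 histone genes in the 4 fits where it was run, while the genes called for the S score ran from 0, without untreated pair 9, to 23. Pair numbers shared between treatments did not pair the samples (correlations of deviations from -0.116 to 0.18), and with the replicate block 0 histone genes were called for treatment. Clustered genes detected were 6 (8.82%, below the 17.4% of all genes), and 32 at a minimum of 1 count (47.1%, above the 25.6% of all genes). With each library thinned to 200000 counts, 9 reached 10 CPM in at least 5 libraries (13.2%, below the 17.9% of all genes). Low counts in single cells limit what can be said of clustered genes: most had a median of 0, and the standard errors of their treatment differences in log2 units ran up to 1.22, so that a difference that was not called is not shown to be absent.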

Other observations

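No count in any of the 46 libraries was found for 17 of the 68 clustered genes. The median share of their 50-base stretches found in no other annotated transcript was 17.2%, and 5 had a share of 0%. The 51 clustered genes with a count had a median share of 50.3%, and 0 of them had a share of 0%. By family, the median library held 33.5 CPM of clustered H4, 16.5 CPM of H2A, 15 CPM of H2B, 0.635 CPM of H1 and 0.139 CPM of H3. The H4 sum had a count in 42 libraries and the H3 sum in 23.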
